A study of Mus musculus with 14 samples.

Results

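The oocyte Nlrp genes outside the subcortical maternal complex were taken as 9 genes by symbol: Nlrp4a, Nlrp4b, Nlrp4c, Nlrp4e, Nlrp4g, Nlrp9a, Nlrp9b, Nlrp9c and Nlrp14. They were 9 of the 56923 genes in the count table, each was found under 1 gene identifier, and all 9 were tested in every comparison. RNA-seq had been performed on 2-cell embryos of ICR mice, an outbred stock, in 14 libraries of 5 embryos each, with 2 libraries in each of 7 conditions. Early 2-cell embryos were collected at 30 h and late 2-cell embryos at 54 h after injection of human chorionic gonadotropin (hCG). G&N embryos were cultured from the late zygote stage with 5 µM Gne140, an inhibitor of lactate dehydrogenase, 50 µM NMN, a precursor of NAD, and 10 mM lactate, and G&N-L embryos with the same inhibitor and precursor but without lactate. G&N-L + Lac-CoA embryos were G&N-L embryos injected with 1 mM lactyl-CoA, the acyl donor for lactylation of histones, and were collected at the late 2-cell stage only. H3K18R late 2-cell embryos had been injected as zygotes with mRNA coding for each of the histones H3.1, H3.2 and H3.3 with lysine 18 changed to arginine, which was added to the embryo's own H3 and did not replace it. WT late 2-cell embryos were their controls, for which the study describes wild-type mRNA, although the label of these libraries says WT only, and no inhibitor is named for either group.

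The assignment of libraries followed the sample titles. The treatment labels name GNE140 without NMN for the early G&N libraries and do not mention the missing lactate for the early G&N-L libraries, the Lac-CoA libraries are labelled with CoA, and the count columns of the H3K18R libraries carry K18A in their names. No label says whether the 2 libraries of a condition came from separate cultures or dams. Each p-value sets a difference between groups against the variation between such libraries, which the fit estimates with the help of all genes. That variation may be technical. Library totals ran from 20350427 to 61275465 counts. The 14 libraries held RNA of oocytes, with Gdf9, an oocyte growth factor, at 68.2 to 628.5 CPM (counts scaled to a common library size) and Zp3, a protein of the zona pellucida, at 31.0 to 156.8 CPM. The 9 genome activation genes found of the 2-cell list (Zscan4, Zfp352, Tcstv, Usp17 and Dux members) summed to 462 to 821.4 CPM in the early and 1035 to 3412 CPM in the late libraries. The 15 cumulus and granulosa cell genes summed to 4.13 to 44.6 CPM. Amh, a defining gene, had 0 counts throughout, while others of the list were detected, with Tnfaip6 at up to 19.2 CPM and Amhr2 at up to 18.2 CPM. RNA of such cells is therefore not shown to be absent.

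NLRP proteins are cytoplasmic proteins with an N-terminal pyrin domain, a nucleotide-binding NACHT domain and leucine-rich repeats. Members such as NLRP3 build inflammasomes in immune cells, while another branch of the family is transcribed in the growing oocyte, stored as maternal mRNA and protein, and degraded after fertilization as the embryo turns on its own genome. In mice this branch expanded into the Nlrp4 and Nlrp9 copies. NLRP5, NLRP2 and NLRP4F of this branch belong to the subcortical maternal complex, a protein assembly of the egg and cleavage embryo, and the 9 genes described here are their relatives. NLRP14 is needed from the mother for early development of the mouse embryo, and NLRP9B is also known as a sensor of viral RNA in the gut.

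The 8 genes whose identifier was in the GENCODE vM39 annotation all lay on chromosome 7 of mm39, the build to which the authors had aligned the reads. Nlrp4c was at chr7:6048160-6108149, Nlrp4b at chr7:10421716-10464095, Nlrp9b at chr7:19725308-19807231 and Nlrp4e at chr7:23000617-23061702. Nlrp9c, Nlrp4a and Nlrp9a followed each other at chr7:26021898-26103125, chr7:26134538-26175567 and chr7:26234448-26275040, with Nlrp9c on the minus strand and the other 7 genes on the plus strand. Nlrp14 stood apart at chr7:106766153-106797309. The identifier of Nlrp4g (ENSMUSG00000079741.7) was not matched, so its position and length are not given.

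Because the copies are similar, some of their reads fit more than 1 place. In Nlrp4e, 33.2% of the 3400 exonic bases lay in stretches of at least 100 bases that recurred exactly elsewhere in the genome, in Nlrp4c among other places. The share was 13.1% in Nlrp9b, 5.61% in Nlrp4c, 3.7% in Nlrp9a and 1.9% in Nlrp9c, and it was 0% in Nlrp4a, Nlrp4b and Nlrp14. For stretches of at least 50 bases the share was 70% in Nlrp4e, 34.3% in Nlrp4c, 19.7% in Nlrp9b, 15.7% in Nlrp9a, 12.2% in Nlrp9c and 10.9% in Nlrp4a, and 0% in Nlrp4b and Nlrp14. The read length and the counting of reads with several matches are not given in the sources used here, so the values of Nlrp4e and Nlrp4c above all, and of Nlrp9b, Nlrp9a, Nlrp9c, Nlrp4a and the unmatched Nlrp4g, are uncertain to that extent. Nlrp9b also shared 3.56% of its exonic bases with an overlapping annotated gene, Gm18877, on the same strand.

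Promoters are shown because members that moved alike and members that moved apart both had related upstream sequences. RefSeq windows on GRCm38.p6, from 250 bases before to 50 bases after an annotated start, were held for 7 of the 9 genes, in 9 windows, with no entry for Nlrp4g and Nlrp14. The windows of Nlrp9a and Nlrp9c were identical at 96.4% of 253 aligned bases and shared a run of 106 bases. In the lines below, that run and the 12 bases after it are printed 5′ to 3′ along each gene's own strand, with CCAAT in capitals.
Nlrp9a, chr7:26534905-26535022, plus strand, GRCm38.p6: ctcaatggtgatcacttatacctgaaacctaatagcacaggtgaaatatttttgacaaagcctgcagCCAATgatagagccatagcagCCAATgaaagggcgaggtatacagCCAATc
Nlrp9c, chr7:26403745-26403862, minus strand, GRCm38.p6: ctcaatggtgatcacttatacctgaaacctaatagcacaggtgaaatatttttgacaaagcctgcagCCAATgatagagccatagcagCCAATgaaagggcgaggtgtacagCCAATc
Each copy held CCAAT 3 times. The second window of Nlrp4a and the windows of Nlrp4b and Nlrp4c were likewise related, with 80.4% identity between Nlrp4a and Nlrp4b, 78.3% between Nlrp4a and Nlrp4c and 80.5% between Nlrp4b and Nlrp4c, each for the window printed. Every pair of windows outside these 2 groups gave 57.6% to 68%, with no shared run over 10 bases. The longest stretch that the 3 Nlrp4 genes had in common before their starts is in capitals in the next lines.
Nlrp4a, chr7:26435516-26435581, plus strand, GRCm38.p6: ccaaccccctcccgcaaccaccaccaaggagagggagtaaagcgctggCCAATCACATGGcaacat
Nlrp4b, chr7:10687691-10687756, plus strand, GRCm38.p6: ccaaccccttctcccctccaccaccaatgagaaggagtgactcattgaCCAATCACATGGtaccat
Nlrp4c, chr7:6045095-6045160, plus strand, GRCm38.p6: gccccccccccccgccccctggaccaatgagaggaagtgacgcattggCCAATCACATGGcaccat
This stretch of 12 bases, searched on both strands, was in 7 of 32851 windows of all genes (0.0213%). Of these, 4 were windows of Nlrp4a, Nlrp4b and Nlrp4c, and the other 3 those of Oscp1, Tmem52b and Dcxr. The windows of Nlrp4b overlap and hold the same site. The stretch was picked because these 3 Nlrp4 genes share it, so its presence in their windows was given in advance and its rarity tests nothing. It begins with CCAAT, which an E-box, CANNTG, follows, the site read by basic helix-loop-helix factors such as FIGLA of the oocyte. CANNTG was in all 9 windows of the 7 genes and in 72.3% of all windows, CCAAT on either strand in 6 of the 7 genes and 37.4% of all windows, and TAATTG on either strand, the core bound by the oocyte homeobox protein NOBOX, in Nlrp9a and Nlrp9b and 8% of all windows. CCAAT was searched after the shared stretches had been seen, and it overlaps the E-box in none of the printed copies. The printed stretches were each found at 1 place of chromosome 7 of mm39, where no annotated exon overlapped them, although that of Nlrp4a lies downstream of another annotated start of the gene.

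The 9 genes were abundant in early embryos. Together they took 0.9692% to 1.068% of all counts in the 4 early libraries. Per kb of exon and on library sizes normalized by the trimmed mean of M-values (TMM), the early G&N mean was highest for Nlrp9c, at 743.7 ± 109 CPM per kb (SD, n = 2). Nlrp4a followed at 455.7 ± 2.78, Nlrp14 at 452.5 ± 222, Nlrp9a at 388.2 ± 40.8, Nlrp9b at 248.3 ± 53.4, Nlrp4b at 186.2 ± 30.1 and Nlrp4e at 138.0 ± 9.78 CPM per kb. Nlrp4c was far lower, at 11.7 ± 2.87 CPM per kb. Nlrp9c ranked between 21 and 97 among all genes by counts in every library. Nlrp4c, the lowest, still had 69 counts in H3K18R 1, and replicates differed by a median of 1.10-fold to 2.20-fold over the 9 genes, by group.

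**Figure D1:**
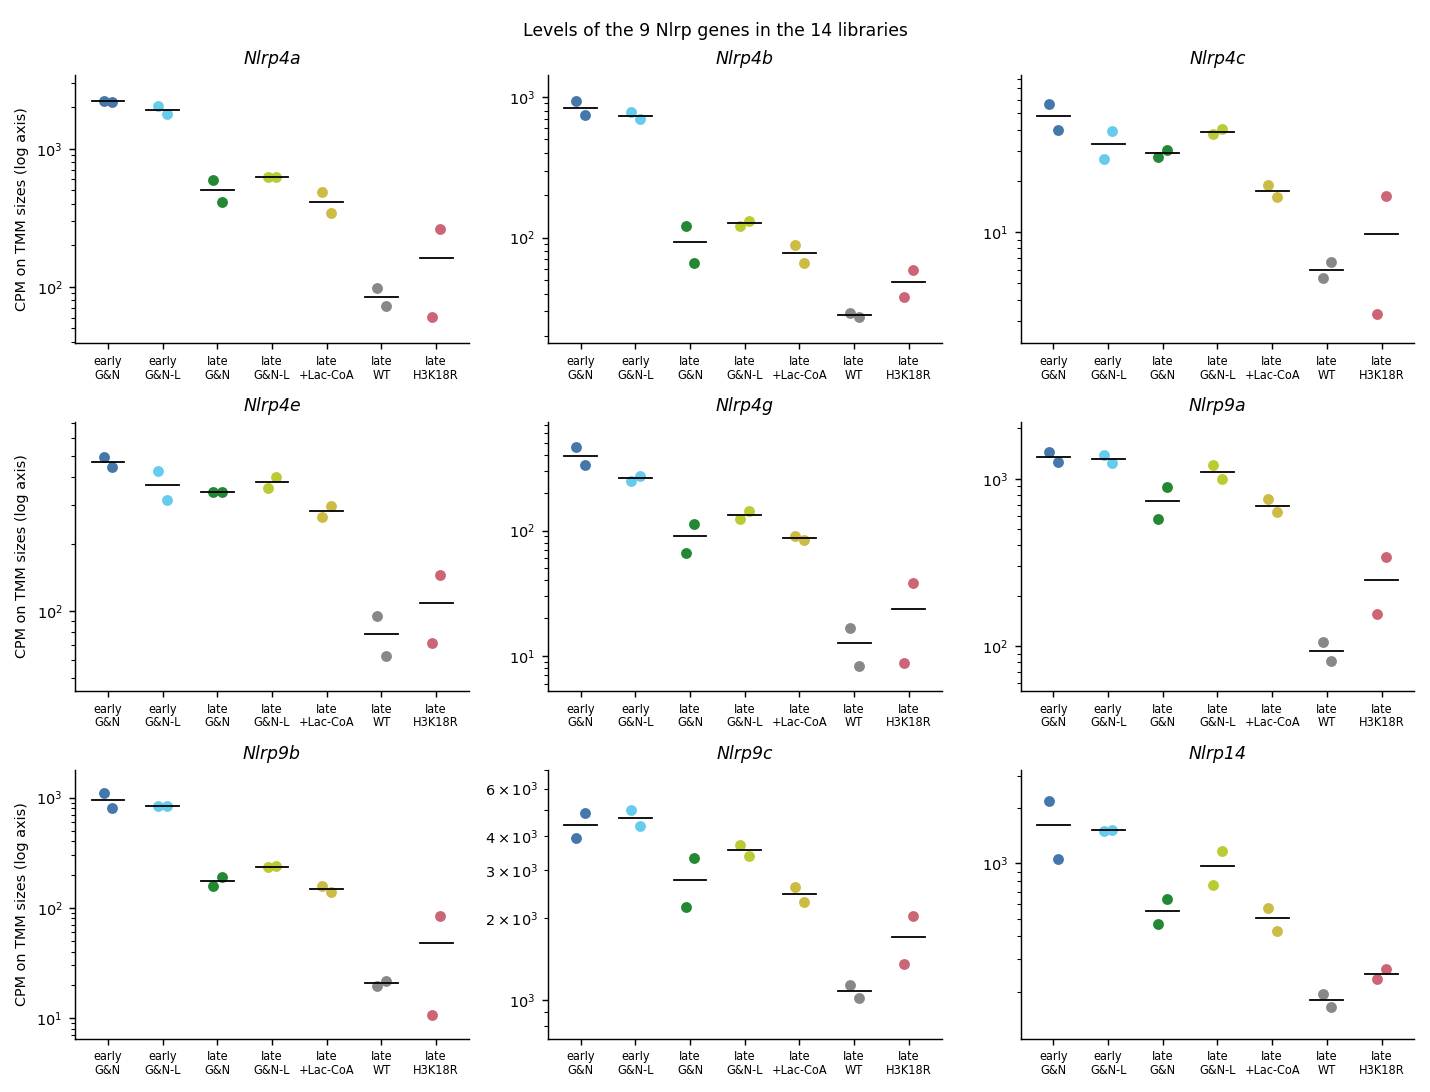
Level of each of the 9 Nlrp genes in the 14 libraries, in CPM on TMM-normalized library sizes (vertical log axis, with its own range in each panel), by condition on the horizontal axis. Points are libraries and lines are means of 2 libraries. The early libraries are highest for 6 of the 9 genes, while a late G&N-L library lies above an early library for Nlrp4c, Nlrp4e and Nlrp14, and the WT libraries are below every inhibitor-treated library for all 9 genes.

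The late 2-cell stage was first compared with the early stage in G&N embryos, where maternal mRNAs would be cleared and the embryonic genome activated with lactate present. All 9 genes were lower in the late libraries, by 0.52 to 3.22 on the log2 scale (median -1.59, against a median of 0.08 over the 19443 genes tested). The test was edgeR's quasi-likelihood test with Benjamini-Hochberg adjustment, as in all comparisons below, and a gene was called at an adjusted p under 0.05. By it 5 of the 9 genes fell, Nlrp4a, Nlrp4b, Nlrp4g, Nlrp9b and Nlrp14, where 5.47% of all genes were called lower. By a looser criterion, a log2 fold change beyond 0.5 in size together with p under 0.05 before adjustment, 6 were lower against 14.6% of all genes. For all 9, both late libraries were below both early libraries, which held for 28.9% of all genes.

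Nlrp4b fell furthest. It was at 931.6 and 740.5 CPM in early G&N and at 120.3 and 66.3 CPM in late G&N embryos, 9.35-fold lower (log2 fold change -3.22 ± 0.377 SE, adjusted p = 0.0108, edgeR). Nlrp9b was at 1094 and 805.1 CPM early and at 158.8 and 189.5 CPM late, 5.68-fold lower (-2.51 ± 0.254, adjusted p = 0.00806). The late levels of these genes were well under the lower early library, and the gap was wider than the difference between the replicates of either stage.

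Nlrp4a was at 2216 and 2197 CPM early and at 593 and 411.2 CPM late, 4.63-fold lower (log2 fold change -2.21 ± 0.294 SE, adjusted p = 0.0139). Nlrp4g was at 462.4 and 331.6 CPM early and at 66.2 and 113.7 CPM late, 4.60-fold lower (-2.20 ± 0.344, adjusted p = 0.0195). Nlrp14, the maternal-effect gene, was at 2184 and 1057 CPM early and at 467.8 and 638 CPM late, 3.01-fold lower (-1.59 ± 0.363, adjusted p = 0.0465). Its early libraries differed 2.07-fold from each other, the widest replicate gap among the 9 genes in that group, and its call was the nearest to the threshold.

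The other 4 genes had smaller differences and did not pass the test. Nlrp9c was at 3957 and 4870 CPM early and at 2199 and 3344 CPM late (log2 fold change -0.76 ± 0.326 SE, adjusted p = 0.169). Nlrp9a was at 1453 and 1251 CPM early and at 577 and 893.4 CPM late (-0.95 ± 0.288, adjusted p = 0.0757). Nlrp4e, at 492.7 and 445.6 CPM early and 343.7 and 344.1 CPM late (-0.52 ± 0.223, adjusted p = 0.171), had the value nearest 0. Nlrp4c was at 56.5 and 39.8 CPM early and at 27.8 and 30.4 CPM late (-0.78 ± 0.32, adjusted p = 0.154). Of the pairs with related promoters, Nlrp9a and Nlrp9c thus had similar values in this comparison, and Nlrp4c stood apart from Nlrp4a and Nlrp4b. A part of the promoters in this was not tested.

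The calls rested on both late G&N libraries. Without late G&N 1 only Nlrp4b was called, and without late G&N 2 none of the 9 was, Nlrp4b coming nearest (log2 fold change -2.87, adjusted p = 0.0527, the highest of 3.7e-17 to 0.0527 over its 11 other fits), while 7 still passed the looser criterion. A level in CPM is a share of the library, so less of a transcript per embryo and more RNA of other genes cannot be told apart, and the TMM factors ran from 0.826 to 0.94 in the early and from 0.98 to 1.14 in the late libraries. Scaled to library totals instead, the median of all genes tested moved up by 0.38, the share of called genes that were lower went from 40.1% to 23.6%, and the 9 genes remained lower, Nlrp4e least at -0.13, with 4 called. The late and early libraries of Nlrp4e then overlapped.

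**Figure D2:**
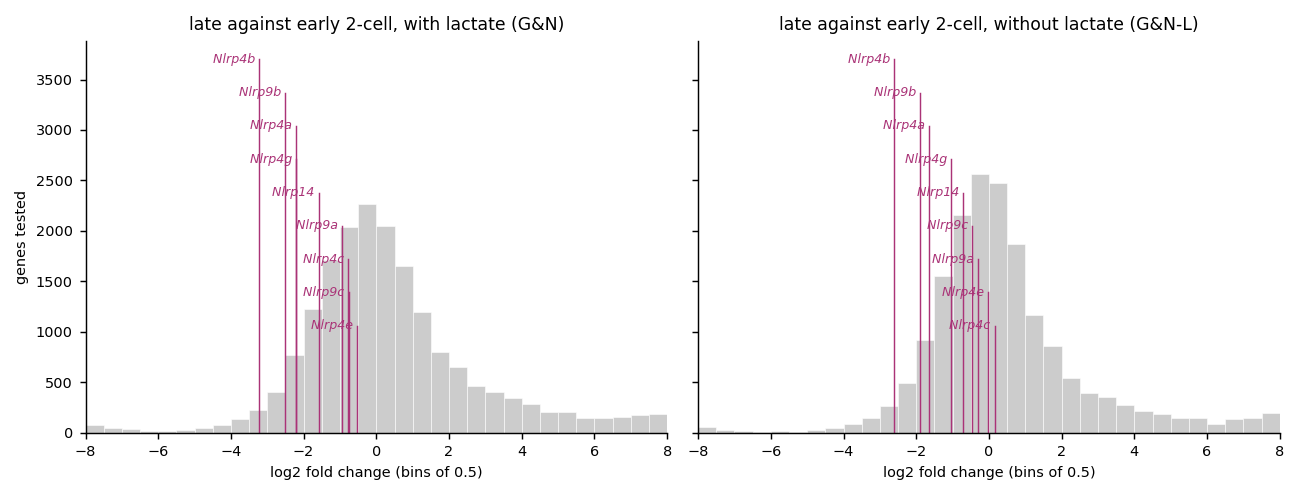
Number of genes tested (vertical axis) by their log2 fold change between the late and the early 2-cell stage (horizontal axis, bins of 0.5), with lactate on the left and without on the right. Lines mark the 9 Nlrp genes, their heights serving only to separate the names, and genes beyond the ends of the axis are not shown. Nlrp4b, Nlrp9b and Nlrp4a lie in the left tail of both panels, and Nlrp4c, Nlrp4e, Nlrp9a and Nlrp9c nearer the middle.

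The same comparison in G&N-L embryos, without lactate, used other libraries throughout. Here 8 of the 9 genes were lower and Nlrp4c was higher (median -0.71, against 0.15 over the 18604 genes tested). Nlrp4b, Nlrp9b, Nlrp4a and Nlrp4g fell, 4 of 9 where 5.87% of all genes were called lower, 5 passed the looser criterion as lower against 13.2%, and 7 had late libraries below both early libraries against 26.1%. Nlrp4b was at 779.7 and 693.1 CPM early and at 120.9 and 131.4 CPM late, 6.08-fold lower (log2 fold change -2.60 ± 0.15 SE, adjusted p = 0.00489). Nlrp9b went from 840.4 and 841.5 CPM to 235.9 and 236.6 CPM, 3.71-fold lower (-1.89 ± 0.142, adjusted p = 0.00583). Nlrp4a went from 2041 and 1781 CPM to 627.5 and 629.6 CPM, 3.17-fold lower (-1.66 ± 0.128, adjusted p = 0.006). Replicates of these 3 genes lay close together, far from the other stage, and their calls held with any library left out.

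Nlrp4g went from 250.8 and 274.6 CPM to 123.2 and 143.3 CPM (log2 fold change -1.04 ± 0.18 SE, adjusted p = 0.0283), and its call was lost when early G&N-L 1, early G&N-L 2, late G&N-L 1 or late G&N-L 2 was left out, at log2 fold changes of -1.16 to -0.93. Nlrp14 was at 1499 and 1519 CPM early and at 758.5 and 1173 CPM late (-0.71 ± 0.227, adjusted p = 0.0944), and Nlrp9c at 5008 and 4369 CPM early and 3717 and 3394 CPM late (-0.46 ± 0.124, adjusted p = 0.0725). Nlrp9a (-0.31 ± 0.159), Nlrp4e (-0.02 ± 0.178) and Nlrp4c (0.16 ± 0.305) had adjusted p-values of 0.272 to 0.963. With library totals the median of all genes moved up by 0.37 and the share of lower genes among those called went from 49.6% to 27.4%, and Nlrp4e and Nlrp9a then had positive values (0.35 and 0.06), so no direction can be given for Nlrp4c, Nlrp4e and Nlrp9a in embryos without lactate. On that scaling both late libraries of Nlrp4c and Nlrp4e were above both early libraries, and the stages overlapped for Nlrp9a and Nlrp14.

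The ratio of 2 genes within a library does not depend on its scaling. In the 4 early libraries there were 16.5 to 27.6 counts of Nlrp9b for each 100 counts of Nlrp9c. In the 6 late libraries treated with the inhibitor there were 5.67 to 7.22, and in the 4 late libraries without it 0.782 to 4.13. The ranges did not overlap, so in these libraries Nlrp9b fell more than Nlrp9c between the stages on any scaling. Nlrp4a per 100 counts of Nlrp9c was 40.8 to 56 early, 12.3 to 27 in the inhibitor-treated late and 4.45 to 12.9 in the H3K18R and WT libraries, where the last 2 ranges overlapped. Nlrp9a per 100 counts of Nlrp9c was 25.7 to 36.7 early and 26.2 to 32.7 in the inhibitor-treated late libraries, which overlapped, and 7.95 to 16.8 in the 4 H3K18R and WT libraries. Nlrp9c alone made up 30.8% to 41.5% of the counts of the 9 genes early, 47.5% to 55.4% in the inhibitor-treated late and 62.7% to 70.0% in the H3K18R and WT libraries. Differences in the reads shared between Nlrp9 copies were not tested.

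**Figure D3:**
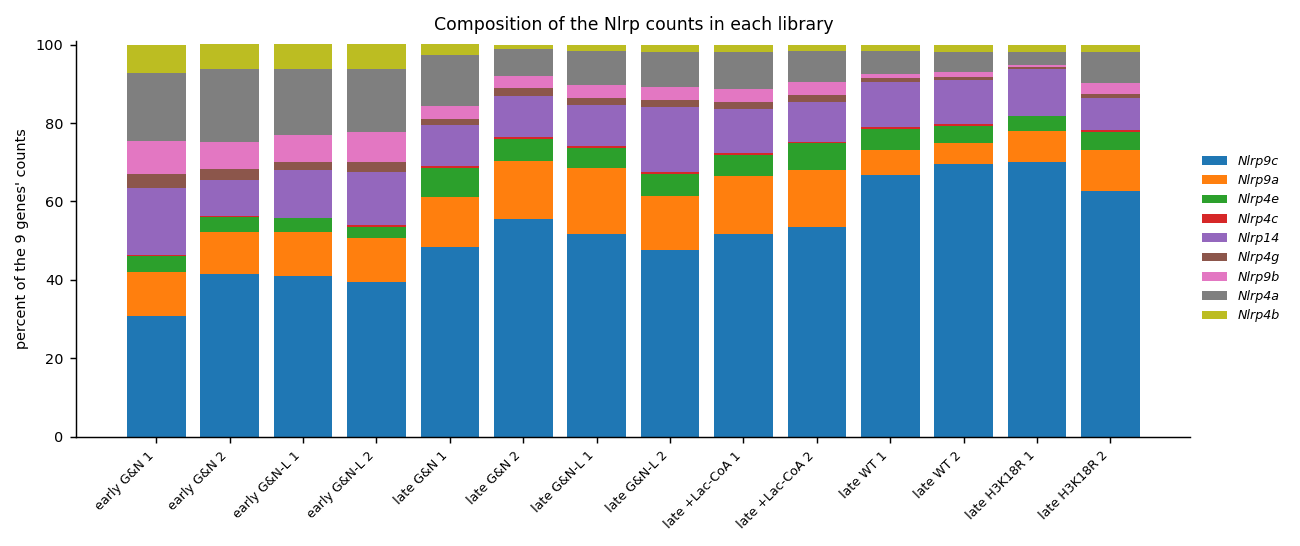
Share of each of the 9 Nlrp genes in their summed counts (vertical axis, percent) in each of the 14 libraries (horizontal axis). Nlrp9c, at the foot of each bar, widens from 30.8% to 41.5% in the early libraries to 62.7% to 70.0% in the WT and H3K18R libraries, while the segments of Nlrp9b and Nlrp4b near the top narrow.

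Whether lactate mattered was asked at each stage. In early 2-cell embryos the log2 fold changes of G&N-L against G&N ran from -0.46 for Nlrp4g to 0.19 for Nlrp9c, with a median of -0.06 (-0.01 over all genes). In 4 genes, Nlrp4a, Nlrp4c, Nlrp4e and Nlrp4g, both G&N-L libraries were below both G&N libraries, as for 21.3% of all genes. With library totals the groups overlapped for Nlrp4c, and both G&N-L libraries were above both G&N libraries for Nlrp9c. None of the 9 genes was called, by edgeR's adjusted p (0% of the 17343 genes tested), at an unadjusted p under 0.05, by DESeq2, or by the looser criterion (4.5% of all genes). Nlrp4g had the smallest unadjusted p, at 250.8 and 274.6 CPM in G&N-L and 462.4 and 331.6 CPM in G&N embryos (log2 fold change -0.46 ± 0.21 SE, adjusted p = 1, edgeR).

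In late 2-cell embryos the G&N-L libraries were higher than the G&N libraries for all 9 genes, by 0.19 to 0.86 on the log2 scale (median 0.47, against -0.02 over the 19481 genes tested). In every one of the 9 genes both G&N-L libraries were above both G&N libraries, a pattern that 18.6% of all genes showed. None was called by edgeR's adjusted p, as for 0% of all genes. An unadjusted p under 0.05 was found for 3, and for 2332 of the 19481 genes in either direction, and 2 passed the looser criterion as higher (4.23% of all genes). DESeq2 called 1, Nlrp14, and 916 of the 19481 genes in either direction. Nlrp14 was at 758.5 and 1173 CPM in G&N-L and at 467.8 and 638 CPM in G&N embryos, 1.81-fold higher (log2 fold change 0.86 ± 0.266 SE, adjusted p = 0.334, edgeR). Nlrp9a was at 1215 and 990.1 CPM against 577 and 893.4 CPM, 1.56-fold higher (0.64 ± 0.248, adjusted p = 0.394). Nlrp9b was at 235.9 and 236.6 CPM against 158.8 and 189.5 CPM (0.49 ± 0.193, adjusted p = 0.405).

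The remaining genes of this comparison had smaller or more variable differences. Nlrp9c was at 3717 and 3394 CPM in G&N-L and at 2199 and 3344 CPM in G&N embryos (0.42 ± 0.214), where the second G&N library nearly reached the lower G&N-L library. Nlrp4g (0.62 ± 0.298), Nlrp4c (0.47 ± 0.275), Nlrp4b (0.47 ± 0.349), Nlrp4a (0.36 ± 0.246) and Nlrp4e (0.19 ± 0.178) had adjusted p-values from 0.525 to 0.83. The positive direction held for all 9 genes in each of the 11 other fits, and the sizes rested on which G&N library was used: without late G&N 2, 5 genes passed the looser criterion and Nlrp4b was at 0.15, and without late G&N 1 it was at 1.02 and 2 genes passed.

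Whether the change without lactate differed between the stages was tested by the interaction term over the 8 libraries concerned. The term was positive for all 9 genes, from 0.26 for Nlrp9c to 1.11 for Nlrp4g (median 0.57, against 0.06 over the 22287 genes tested), which is a smaller fall, or for Nlrp4c none, from the early to the late stage without lactate. None was called by edgeR's adjusted p (0% of all genes) or by DESeq2, and 1, Nlrp4g, had an unadjusted p under 0.05 and passed the looser criterion as higher, against 3.57% of all genes (1.11 ± 0.396, adjusted p = 0.65, edgeR). The stages were therefore not shown to differ.

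**Figure D4:**
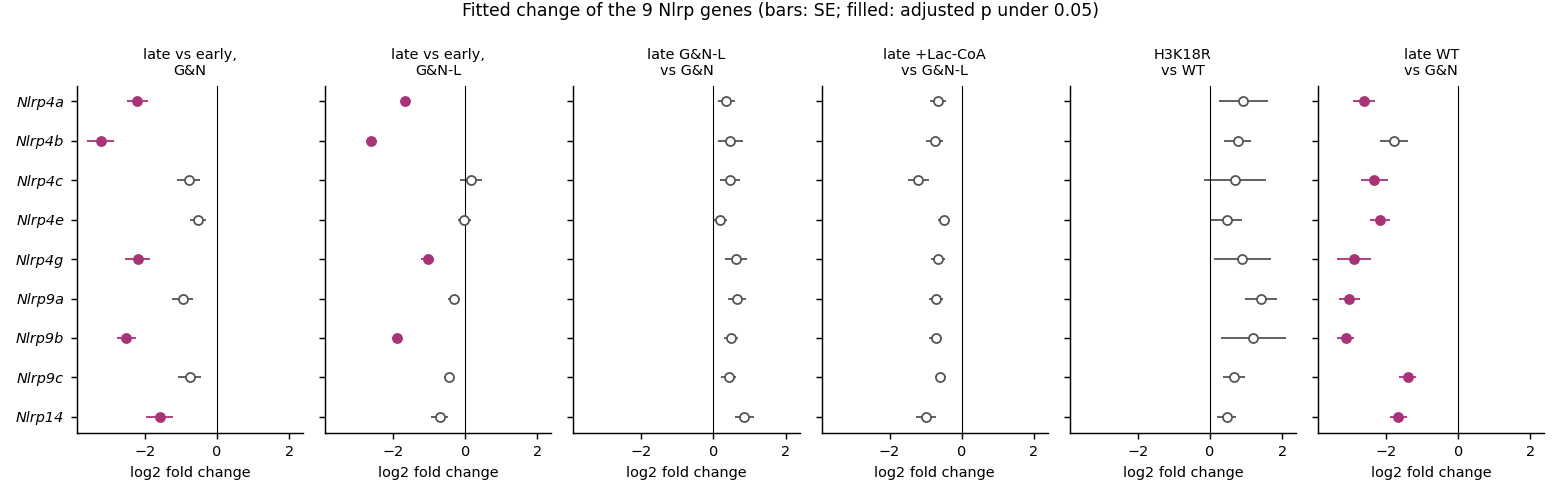
Fitted log2 fold change (horizontal axis) of each of the 9 Nlrp genes (vertical axis) in 6 comparisons, with bars of 1 SE. Filled points have an adjusted p under 0.05, which 5, 4 and 8 genes have in the first, the second and the last panel and none in the other panels. The changes of G&N-L against G&N lie right of 0 and those of Lac-CoA injection left of 0 for all 9 genes.

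Lac-CoA injection was compared with its base, the late G&N-L embryos, so these values share the G&N-L libraries with those of G&N-L against G&N, and whether G&N-L embryos had a mock injection is not given. All 9 genes were lower after injection, by 0.48 to 1.20 on the log2 scale (median -0.72, against -0.01 over the 19610 genes tested), and in each both injected libraries were below both G&N-L libraries, as for 22% of all genes. None was called by edgeR's adjusted p (0.294 to 0.313, and 0% of all genes). All 9 had an unadjusted p under 0.05, as did 2609 of the 19610 genes in either direction, and 8 passed the looser criterion as lower (6.29% of all genes). DESeq2 called 5, Nlrp4c, Nlrp9a, Nlrp9b, Nlrp9c and Nlrp14, and 1183 of the 19610 genes in either direction. Nlrp4c was at 19.0 and 16.1 CPM after injection and at 37.8 and 40.2 CPM in G&N-L embryos, 2.30-fold lower (log2 fold change -1.20 ± 0.299 SE, adjusted p = 0.294, edgeR). Nlrp14 was at 572.8 and 429.1 CPM against 758.5 and 1173 CPM, 1.99-fold lower (-0.99 ± 0.276, adjusted p = 0.304). Nlrp9b was at 157.4 and 138.9 CPM against 235.9 and 236.6 CPM, 1.65-fold lower (-0.72 ± 0.182, adjusted p = 0.294). For Nlrp4c and Nlrp9b the gap between groups was wider than that between the libraries of either group, and for Nlrp14 it was narrower than that between the G&N-L libraries.

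Nlrp9c, the most abundant member, was at 2603 and 2296 CPM after injection and at 3717 and 3394 CPM in G&N-L embryos (-0.59 ± 0.149, adjusted p = 0.294). Nlrp9a was at 752.4 and 629 CPM against 1215 and 990.1 CPM (-0.72 ± 0.194, adjusted p = 0.301). Nlrp4b (-0.75 ± 0.241), Nlrp4g (-0.66 ± 0.201), Nlrp4a (-0.65 ± 0.221) and Nlrp4e (-0.48 ± 0.168) had adjusted p-values of 0.305 to 0.313, and Nlrp4e alone missed the fold of the looser criterion. The negative direction held for all 9 genes in the 11 other fits, of which library totals moved the median of all genes by 0.11, while the count by the looser criterion was 4 without Lac-CoA 2 or without G&N-L 2, 5 without G&N-L 1 and 2 with all 14 libraries in 1 fit.

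Against the late G&N embryos, which had lactate, the Lac-CoA embryos had fitted differences nearer 0. The log2 fold changes ran from -0.64 ± 0.349 for Nlrp4c to 0.06 ± 0.311 for Nlrp4g, with a median of -0.14 against 0.01 over the 19613 genes tested. In 3 genes, Nlrp4c, Nlrp4e and Nlrp9b, both Lac-CoA libraries were below both G&N libraries, as for 22.2% of all genes. With library totals the groups overlapped for Nlrp4e and Nlrp9b. None of the 9 genes was called by edgeR's adjusted p (0% of all genes), at an unadjusted p under 0.05, by DESeq2 or by the looser criterion (8.51% of all genes). Nlrp4c was the member furthest from the G&N level, at 19.0 and 16.1 CPM against 27.8 and 30.4 CPM (adjusted p = 0.77, edgeR). The late G&N replicates differed by a median of 1.44-fold over the 9 genes, more than those of the G&N-L (1.10-fold) and Lac-CoA (1.18-fold) embryos, which limits what this comparison could show.

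In the comparison of the mutant histone with its control, the H3K18R means were above the WT means for all 9 genes (log2 fold changes 0.46 to 1.42, median 0.77, against 0.03 over the 17704 genes tested), but the H3K18R libraries differed widely. None was called by edgeR's adjusted p (0.00565% of all genes) or by DESeq2, 1 had an unadjusted p under 0.05 and passed the looser criterion as higher (3.77% of all genes), and 4 had both H3K18R libraries above both WT libraries (19.5% of all genes). That gene was Nlrp9a, with 156 and 342.5 CPM in the H3K18R libraries and 105.6 and 80.7 CPM in the WT libraries, 2.68-fold higher (log2 fold change 1.42 ± 0.442 SE, adjusted p = 0.734, edgeR). Nlrp9c was at 1360 and 2035 CPM against 1137 and 1014 CPM (0.66 ± 0.298, adjusted p = 0.83), Nlrp4b at 37.9 and 58.6 CPM against 29.1 and 27.4 CPM (0.77 ± 0.372, adjusted p = 0.83) and Nlrp14 at 233.6 and 265.1 CPM against 195.3 and 164.7 CPM (0.47 ± 0.265, adjusted p = 0.849).

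All 9 genes were higher in H3K18R 2 than in H3K18R 1, by 1.13-fold for Nlrp14 to 7.90-fold for Nlrp9b, with a median of 2.20-fold, whereas the WT libraries differed by a median of 1.23-fold. Nlrp9b had 10.6 CPM in H3K18R 1 and 84.0 CPM in H3K18R 2, on either side of the WT libraries at 19.6 and 21.6 CPM. Nlrp4a was at 60.6 and 262.2 CPM, Nlrp4g at 8.77 and 38.3 CPM, Nlrp4c at 3.31 and 16.2 CPM and Nlrp4e at 71.7 and 145 CPM, so that 5 genes overlapped WT. Without H3K18R 2 these 5 genes were lower than in WT (log2 fold changes -0.95 to -0.14). Over all fits with 1 library left out, their highest values ran from 0.87 for Nlrp4e to 2.02 for Nlrp9b. Cumulus and granulosa cell genes summed to 44.6 and 37.8 CPM in the H3K18R and to 12.4 and 26.0 CPM in the WT libraries, where 6 of 15 were tested, 5 were higher and none was called by edgeR's adjusted p (3 passed the looser criterion). Sperm and spermatid genes summed to 52.0 and 69.7 against 32.2 and 25.0 CPM, with 4 of 8 tested and all 4 higher. The part of either in the difference was not tested. The 8 genes of the subcortical maternal complex also stood higher in H3K18R 2, with sums of 884.5 CPM in H3K18R 1 and 2019 CPM in H3K18R 2. They summed to 897.7 and 556.1 CPM in the WT libraries, and 7 were higher and 1 lower in H3K18R embryos (median 0.68). The 12 oocyte and zona genes summed to 18860 and 18800 against 18380 and 17450 CPM. That sum is weighted to abundant genes such as Dppa3, at 8153 CPM or more in every library. Of the 12, 9 were higher and 3 lower in H3K18R embryos (median 0.40), and none of either list was called by edgeR's adjusted p.

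The late WT embryos had the lowest level of these genes in the series by mean, for all 9. Against late G&N embryos they were lower by 1.40 to 3.12 on the log2 scale (median -2.32, against -0.16 over the 18986 genes tested), 8 of 9 fell where 2.68% of all genes were called lower, all 9 passed the looser criterion (15.6% of all genes), and in all 9 both WT libraries were below both G&N libraries (32.4% of all genes). By the labels and methods WT and G&N embryos differed in the inhibitor and NMN and may have differed in the injection of mRNA, and these cannot be told apart.

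Nlrp9b was at 19.6 and 21.6 CPM in WT and at 158.8 and 189.5 CPM in late G&N embryos, 8.71-fold lower (log2 fold change -3.12 ± 0.235 SE, adjusted p = 0.0413). Nlrp9a, which was not called between the stages, was at 105.6 and 80.7 CPM against 577 and 893.4 CPM, 8.10-fold lower (-3.02 ± 0.291, adjusted p = 0.0413). Nlrp4g was at 16.8 and 8.33 CPM against 66.2 and 113.7 CPM, 7.34-fold lower (-2.88 ± 0.476, adjusted p = 0.0445). In all 3 the higher WT library was far below the lower G&N library, by a wider margin than that between the libraries of either group.

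Nlrp4a was at 98 and 72.4 CPM against 593 and 411.2 CPM (-2.61 ± 0.31, adjusted p = 0.0413). Nlrp4c (-2.32 ± 0.382), Nlrp4e (-2.17 ± 0.273), Nlrp14 (-1.66 ± 0.228) and Nlrp9c (-1.40 ± 0.236) fell with adjusted p-values of 0.0413 to 0.0455. Nlrp4b, at 29.1 and 27.4 CPM against 120.3 and 66.3 CPM (-1.78 ± 0.381, adjusted p = 0.0635), missed the threshold. Between the stages with lactate, by contrast, Nlrp4b had the largest fitted difference and Nlrp9a, at -0.95, the sixth largest. The calls stood close to the threshold: without late G&N 1, WT 1 or WT 2 none was left, and without late G&N 2 there were 4, while all 9 remained lower and passed the looser criterion in each of these fits.

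Over the 7 conditions, 8 of the 9 genes had their highest mean in early G&N embryos, and Nlrp9c had it in early G&N-L embryos, where its libraries overlapped those of early G&N. For Nlrp4a, Nlrp4b, Nlrp4g, Nlrp9a, Nlrp9b, Nlrp9c and Nlrp14 the order of means after the early groups was late G&N-L, late G&N, Lac-CoA, H3K18R and WT. In these 7 genes late G&N and Lac-CoA overlapped except for Nlrp9b, Lac-CoA and H3K18R did not overlap, and H3K18R overlapped WT for Nlrp4a, Nlrp4g and Nlrp9b. Nlrp4c and Nlrp4e had another order of means, with late G&N-L, at 39.0 ± 1.72 and 379.7 ± 29.2 CPM (SD, n = 2), above early G&N-L, at 33.2 ± 8.69 and 370.5 ± 77.3 CPM. The libraries of these 2 groups overlapped, and the fit gave no direction between them for either gene.

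The related lists of genes moved as follows between the stages with lactate, by edgeR's adjusted p and beside the median of 0.08 over all genes. Of the 19443 genes tested 2654 were called, 1063 of them lower (5.47% of all genes) and the others higher. Of the 8 genes of the subcortical maternal complex 3 fell and none rose (median -1.66): Ooep (-3.79), Nlrp5 (-2.26) and Nlrp2 (adjusted p = 0.0332). Of 12 oocyte and zona genes 6 fell and none rose (median -1.05), among them the oocyte linker histone H1f8 (-2.69), Zar1 (-2.17), which binds maternal mRNA, and Npm2 (-1.61), a histone chaperone. Of 9 activation genes tested 3 rose, Zscan4f (6.58), Zfp352 (5.99) and Usp17lc (4.27), and none fell (median 4.27). Of 6 oocyte transcription factors Taf4b rose (2.46) and Nobox fell (-2.27), with a median of -0.22.

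Relatives outside the oocyte branch were scarce. Of 17 other NLR genes, among them Nlrp3 and the NOD and NAIP receptors, 11 were tested, none was called and 4 were higher by the looser criterion (median 1.96). The share of all genes higher by that criterion is not given here. Their sum was 39.8 to 90.0 CPM in every library, where the 9 oocyte genes summed to 1459 to 12850 CPM. Naip1 alone reached 57.6 CPM in its highest library, about the highest level of Nlrp4c, the scarcest of the 9 genes (56.5 CPM). Of 8 inflammasome partners 5 were tested and none was called, with 2 higher and 1 lower by the looser criterion (median 0.13). Il1b, the inflammasome's cytokine product, had 0 counts in all libraries and Pycard, the adaptor ASC, at most 29. Other partners were detected, with Nek7 at 12.1 to 54.3 CPM in every library and Aim2 at up to 4.53 CPM. Of 15 cumulus and granulosa cell genes 8 were tested and 1, Tnfaip6, was called higher (median 1.19), and of 8 sperm and spermatid genes 5 were tested and none was called, with 1 lower by the looser criterion (median -0.20).

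Maternal lists were read beside the 9 genes in 3 other comparisons. Between late WT and late G&N embryos 2 of 8 complex genes and 3 of 12 oocyte and zona genes fell (medians -1.60 and -1.43). Of the 9 genes described here 8 fell (-2.32), and 2.68% of all genes were called lower. After Lac-CoA injection none of either list was called by edgeR's adjusted p, while 4 complex genes and 3 oocyte and zona genes were lower by the looser criterion (medians -0.64 and -0.66, against -0.72 for the 9 genes). In late G&N-L against G&N embryos none was called by the adjusted p, 2 oocyte and zona genes and no complex gene were higher by the looser criterion, and the medians were 0.36 and 0.29, against 0.47 for the 9 genes. Lists that are not maternal moved as well. In WT against G&N embryos all 8 activation genes tested (median -0.80, 1 called) and all 5 sperm and spermatid genes tested (-1.91, none called) were lower. Of 10 other NLR genes tested there 7 were higher (0.42). Of 8 activation genes tested 7 were higher in late G&N-L against G&N embryos (0.27), and 7 of 8 after Lac-CoA injection (0.39).

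Among the 25041 genes that passed the filter over all 14 libraries, the 5 whose log2 levels were most alike the mean standardized profile of the 9 genes were Gm47182 (Pearson's r = 0.994 over 14 libraries), Itga9 (0.993), an integrin subunit, Parl (0.992), a protease of the mitochondrial inner membrane, Trim61 (0.991) and Surf4 (0.988), a cargo receptor of the secretory pathway. The 14 points share the step between early, late inhibitor-treated and late H3K18R and WT libraries, which carries such values, so they describe a ranking only. Within the 9 genes, Nlrp9b and Nlrp4a were nearest to each other (0.991), as were Nlrp9a and Nlrp9c (0.973). The promoters of Nlrp9a and Nlrp9c are nearly identical, but both genes also have exonic stretches that recur in other Nlrp9 copies. In late WT against G&N embryos they parted, with log2 fold changes of -3.02 for Nlrp9a and -1.40 for Nlrp9c. Whether promoters had a part in these levels was not tested. The nearest gene of Nlrp9a outside the 9 was Nlrp4f (0.991), of the subcortical maternal complex, and that of Nlrp4e was Obox5 (0.988), an oocyte homeobox gene. The other nearest genes were Fdx1 for Nlrp4a (0.989), Nup37 for Nlrp4b (0.988), Gm15681 for Nlrp4c (0.979), Itga9 for Nlrp4g (0.990), Trim61 for Nlrp9b (0.984), Gm4566 for Nlrp9c (0.985) and Fgf8 for Nlrp14 (0.985).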

How the data were processed

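Reads were checked by the authors with FastQC and trimmed with Trim Galore, then aligned with HISAT2 to mm39, and featureCounts gave the raw counts per gene that were deposited, for 56923 genes and 14 libraries. How strand and multiply matched reads were handled is not given in the sources used here. Library totals were 20350427 to 61275465 counts, and replicates differed by 40.4 to 162.6 per degree of freedom in a chi-square test of their counts, so none was a duplicate. The methods speak of 3 replicates per group, and 2 were analysed here. Columns named K18A were taken as the H3K18R samples.

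The fit of a comparison used the libraries of its groups only, in R 4.3.3 with edgeR 4.0.16 (default filter, TMM, two-sided quasi-likelihood test, Benjamini-Hochberg adjustment over all genes tested). SE is the size of the log2 fold change over the root of F. Levels are CPM on TMM sizes of all 14 libraries, and overlap of groups was judged on them. With 2 libraries a group, the smallest p of an exact permutation test is 0.333. Alternatives were DESeq2 1.42.0, its size factors within edgeR, library totals, no filter, a minimum of 10 counts, 1 fit of all libraries, a replicate block and each library left out. Nearest patterns used log2 CPM with a prior count of 2. The scripts were tested on simulated data. Repeated exonic stretches were found on GRCm39 with blastn 2.17.0, and promoters came from RefSeq. Proteins were not used here.

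All 9 genes were named in every comparison. Of each list at most 3 genes with the smallest p between the stages with lactate were named, plus defining markers and some of the more abundant genes. The lists were subcortical maternal complex, oocyte and zona genes, oocyte transcription factors, 2-cell activation genes, other NLR genes, inflammasome partners, cumulus and granulosa cell genes, and sperm and spermatid genes. The genes and lists were chosen with earlier results of these data known.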

Additional observations from a re-analysis of the deposited data

How the results depend on the processing

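Over 927 refitted log2 fold changes of the 9 genes, 813 kept their direction and side of the threshold, 57 lost a call, 15 gained one and 42 changed sign, and the causes were not tested. No sign changed for late G&N-L against G&N, Lac-CoA against G&N-L, the stages with lactate or WT against G&N. DESeq2 called 1 of the 9 genes in late G&N-L against G&N and 5 in Lac-CoA against G&N-L, where edgeR called 0. For WT against G&N the calls went from 8 to 5 with the size factors of DESeq2, to 5 with the replicate block and to 0 to 4 with 1 library left out. Between the stages they went from 5 to 0 to 5 with lactate when 1 library was left out, and from 4 to 1 without lactate with all 14 libraries in 1 fit, and to 3 with any library left out. The replicate numbers were shared in name only (correlation of deviations -0.040 to 0.007). The replicate block left 4 calls between the stages with lactate, 3 without, and 0 where there had been 0. With library totals, Nlrp14 was at -0.01 in early G&N-L against G&N and at 0.0025 in Lac-CoA against G&N, and Nlrp4e at 0.35 and Nlrp9a at 0.06 between the stages without lactate. With all 14 libraries, early G&N-L against G&N gave -0.05 for Nlrp9a and -0.10 for Nlrp14, Lac-CoA against G&N gave -0.04 for Nlrp4g and -0.09 for Nlrp9a, and the stages without lactate gave 0.04 for Nlrp4e. The log2 fold change of Nlrp9a, late 2-cell G&N-L + Lac-CoA against G&N, was -0.01 with DESeq2 and with its size factors and -0.0032 with at least 10 counts, and between the stages without lactate Nlrp4e was at 0.04, 0.04 and 0.10 under these. With 1 library left out, values in early G&N-L against G&N ran from -0.18 to 0.01 for Nlrp4a, -0.12 to 0.01 for Nlrp4b, -0.15 to 0.09 for Nlrp9b, -0.04 to 0.47 for Nlrp9c and -0.31 to 0.54 for Nlrp14. Those in Lac-CoA against G&N ran from -0.47 to 0.10 for Nlrp4a, -0.59 to 0.31 for Nlrp4b, -0.29 to 0.45 for Nlrp4g, -0.28 to 0.31 for Nlrp9a, -0.36 to 0.20 for Nlrp9c and -0.28 to 0.15 for Nlrp14. Those in H3K18R against WT ran from -0.49 to 1.62 for Nlrp4a, -0.86 to 1.43 for Nlrp4c, -0.14 to 0.87 for Nlrp4e, -0.51 to 1.60 for Nlrp4g and -0.95 to 2.02 for Nlrp9b. Between the stages without lactate they ran from -0.13 to 0.50 for Nlrp4c and -0.19 to 0.15 for Nlrp4e, and in the interaction from -0.01 to 0.58 for Nlrp9c.

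Calls over all genes moved more. DESeq2 called 916 genes for late and 37 for early G&N-L against G&N, 1183 and 471 for Lac-CoA against G&N-L and against G&N and 224 for the interaction, where edgeR called 0, and 118 against 1 for H3K18R, 5959 against 2654 between the stages with lactate, 5218 against 2203 without, and 4104 against 877 for WT. Without a filter edgeR called 317, 42, 3, 22 and 361 genes in the first 5 of these, 78 for H3K18R, 5060 between the stages with lactate and 3668 for WT. With at least 10 counts it called 114, 0, 2, 20 and 0 in the first 5 and 2971 for WT, and with all 14 libraries 11, 4, 0, 0 and 1 in the first 5 and 9 for H3K18R. Without late G&N 1 or late G&N 2 there were 220 or 283 calls between the stages with lactate, and without late G&N-L 1 or 2 there were 335 or 678 without it, where early G&N-L 1 or 2 left out gave 1393 or 1233 and the block 1391. For WT there were 0 without late G&N 1, WT 1 or WT 2 and 435 without late G&N 2, and for H3K18R 0 without WT 2. The interaction had 0 to 26 with 1 library left out. The size factors of DESeq2 moved the median of all genes between the stages with lactate by 0.11. Of the 5 nearest patterns, 5 were kept with a prior count of 0.5 and 4 with library totals. The 9 genes had 69 to 214001 counts per library.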
